A study of Mus musculus with 3 samples.

Results

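T (brachyury, also called Tbxt) encodes the T-box transcription factor that notochord cells express from their origin in the primitive streak onward. Described here are the 103 spots of 3 Visium sections of the mouse embryonic axial skeleton that held at least 2 UMIs of T, out of 3935 spots with at least 1000 UMIs. A UMI (unique molecular identifier) stands for 1 captured RNA molecule, and a Visium spot is a 55 µm disc of the capture slide that can lie under several cells. The members were chosen by their T count alone, so T itself is no finding, and they are called T spots below. The sections, labelled by embryonic day, held 22 such spots of 1561 (E11.5), 36 of 1014 (E12.5) and 45 of 1360 (E13.5).

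Each stage was represented by 1 frozen section, 10 µm thick, labelled bone and embryonic mouse axial skeleton, and the labels used here give no strain, genotype or sex. The spots lie 100 µm apart, centre to centre. T spots were set against the spots of the same section with 0 T UMIs (1458, 894 and 1185 spots in the order of the stages). They were also set against 206 spots with 0 T UMIs (44, 72 and 90) that were matched to them on the share of UMIs from Col2a1, the type II collagen gene of cartilage. The 295 spots with 1 T UMI entered neither comparison. Because a stage is 1 section, differences between stages cannot be told apart from differences between sections, and they are given without a test.

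The notochord is a rod of mesoderm that runs under the neural tube and secretes the signal Sonic hedgehog, which patterns the floor plate above it and the sclerotome beside it. Its vacuolated cells contain cytokeratin filaments and are wrapped in a sheath of collagens, laminins and proteoglycans. As the sclerotome around it condenses into vertebral cartilage, the notochord is lost from the vertebral bodies and widens between them, where its cells become the nucleus pulposus of the intervertebral disc.

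Summed over each section, T spots held 507626 (E11.5), 858803 (E12.5) and 527240 (E13.5) UMIs. The median T spot held 22586 UMIs at E11.5, against 22371 in matched spots and 27051 in all spots without T. At E12.5 the medians were 22012 in T spots, 21827 in matched spots and 24140 in all spots without T. At E13.5 they were 8306 in T spots, 10204 in matched spots and 21457 in all spots without T, so the T spots of that section were shallow. Between 434 and 704 spot barcodes were shared by any 2 sections, which mark positions on the slide and not shared cells. The median Col2a1 UMIs per 10000 were 21.7, 77.8 and 116 in T spots and 21.6, 59.6 and 116 in matched spots, so the match was least close at E12.5. Having been matched on, Col2a1 is no finding in that comparison.

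As a description of the choice, T spots of the 3 sections held 110, 243 and 368 T UMIs, or 217, 283 and 698 CPM (UMIs of a gene per 1000000 UMIs). The highest spot held 28, 32 and 31 T UMIs in the 3 sections in that order. Spots at the threshold were common, with 2 T UMIs in 10 of 22, 13 of 36 and 20 of 45 T spots. A minority with at least 5 T UMIs (6, 14 and 18 spots) held 64.5%, 75.7% and 82.9% of the T UMIs of all T spots.

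A pair of neighbouring genes among those that stood out in the T spots, Krt8 and Krt18, encode the type II and type I keratins that pair with each other into the filaments of simple epithelia and of notochord cells. They are shown because both were higher in T spots of every section and lie beside each other on chromosome 15. The 250 bases upstream of each gene's start follow, from RefSeq (GRCm38.p6), 5′ to 3′ on the gene's own strand. Krt8 lies on the minus strand (chr15:102004343-102004592) and Krt18 on the plus strand (chr15:102027966-102028215). Capitals mark the SOX motif ACAAAG on either strand.
Krt8: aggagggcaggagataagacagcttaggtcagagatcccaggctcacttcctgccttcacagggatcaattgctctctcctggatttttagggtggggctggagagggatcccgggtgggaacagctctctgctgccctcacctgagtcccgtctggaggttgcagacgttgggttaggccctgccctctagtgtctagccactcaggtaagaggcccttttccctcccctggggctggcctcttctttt
Krt18: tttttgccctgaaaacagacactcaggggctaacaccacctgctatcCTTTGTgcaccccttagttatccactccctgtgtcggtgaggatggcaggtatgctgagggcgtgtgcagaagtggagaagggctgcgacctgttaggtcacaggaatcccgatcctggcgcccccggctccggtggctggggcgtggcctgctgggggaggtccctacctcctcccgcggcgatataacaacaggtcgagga

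The SOX motif was found in the Krt18 stretch alone of the pair, and 16.5% of 32851 upstream stretches of this length in the table held it on either strand. The T-box core GGTGTGA was searched on both strands as well, was in neither stretch of the pair, and was in 3.33% of all. The table held a stretch for 4 of the 6 genes listed next, and those of Susd5 and Htra1 held neither motif. A match is a description of letters, and no match says only that these letters are not in the window.

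Against matched spots, 6 genes were at least 2-fold higher in T spots of all 3 sections, namely Shh, Car3, Krt8, Krt18, Susd5 and Htra1. They are 0.109% of the 5487 genes with a mean of at least 25 CPM over both kinds of spots in every section. That mean includes the T spots, and each of the 6 lay under 25 CPM in matched spots of at least 1 section, so its level in T spots admitted it and nothing is read from this share. No gene (0%) was at least 2-fold lower in every section by the same rule. This repeat across sections is a description without a test, and the intervals given with the ratios below are exact 95% intervals that cover counting error only. All 6 genes also passed edgeR's quasi-likelihood test, which was fitted to the sums of each kind of spot in each section with the section as a block. That test called 40 genes higher in T spots (0.413% of 9678 genes tested) and 9 lower (0.093%) at a Benjamini-Hochberg adjusted p under 0.05. DESeq2 called 13 higher and 1 lower, and edgeR without the section block called 0 in either direction, with 101 higher and 49 lower at an unadjusted p under 0.05. Since each section is of another stage, its p-values measure a spread that includes the stage, and no spread between embryos of the same stage was sampled.

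**Figure D1:**
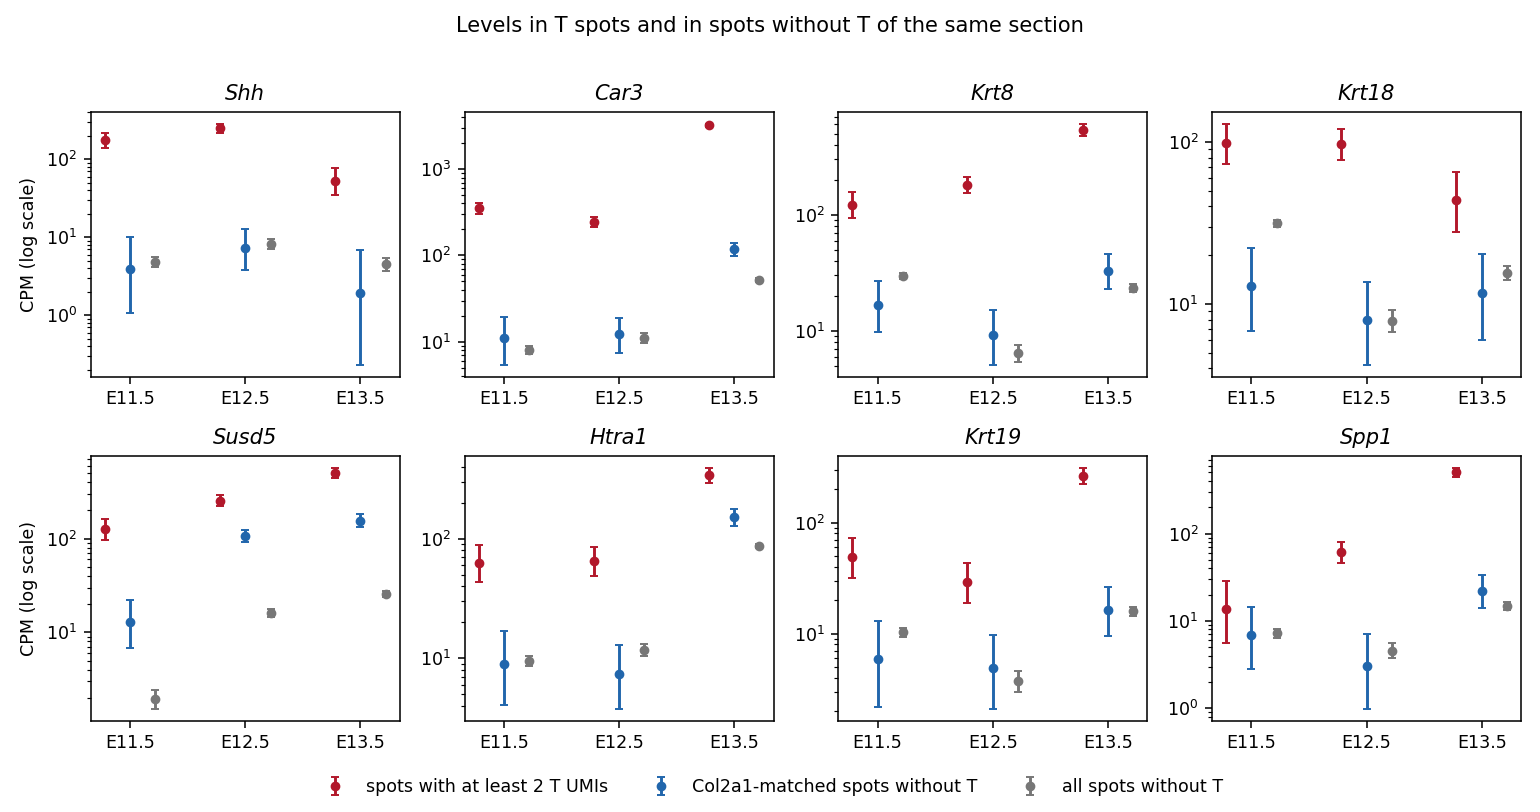
Level in CPM (log axis) of 8 genes in each section, in T spots (red), Col2a1-matched spots without T (blue) and all spots without T (grey); bars are exact Poisson 95% intervals of counting error. In all 8 panels the red point lies above the blue one in each section, and for Spp1 at E11.5 (13.8 CPM in T spots and 6.93 CPM in matched spots) the intervals overlap.

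Shh, the secreted hedgehog signal of notochord and floor plate, stood at 175, 251.5 and 53.1 CPM in T spots of the E11.5, E12.5 and E13.5 sections, against 3.96, 7.33 and 1.93 CPM in matched spots. The ratios were 44.3 (interval 16.7 to 166), 34.3 (19.3 to 67.5) and 27.5 (6.92 to 238). The mean log2 ratio was 4.95 ± 0.42 (SD, n = 3 sections), and edgeR gave a log2 fold change of 5.14 with an adjusted p of 1.15e-08. In all spots without T the level of Shh was 4.83, 8.19 and 4.54 CPM. The lowest T spot sum, that of E13.5, thus stood above the highest sum of spots without T. It rests on 28 UMIs, against 89 at E11.5 and 216 at E12.5. Against matched spots, Shh passed edgeR's filter on low counts through its T spots alone, so it could be called higher and not lower.

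Car3, a cytosolic carbonic anhydrase, was the gene with the most UMIs among the 6. It reached 353, 243 and 3211 CPM in T spots, against 10.9, 12.2 and 118 CPM in matched spots. Its ratios were 32.4 (17.7 to 66.0), 19.9 (12.6 to 33.3) and 27.2 (22.6 to 33.0), and the log2 fold change was 4.74 (edgeR, adjusted p = 4.03e-10). The level at E13.5 was the highest of the 3 sections in T spots and in matched spots alike. The intervals of the 3 ratios overlapped.

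Krt8 stood at 122, 182 and 542 CPM in T spots and at 16.8, 9.16 and 32.9 CPM in matched spots (log2 fold change 3.88, edgeR adjusted p = 1.32e-07). Krt18 stood at 98.5, 96.6 and 43.6 CPM in T spots and at 12.9, 7.94 and 11.6 CPM in matched spots (2.96, edgeR adjusted p = 9.86e-05). For neither keratin did the 2 kinds of spots overlap across the sections. The pair moved apart by section, since at E13.5 Krt8 was at its highest in T spots and Krt18, with 23 UMIs, at its lowest. Krt19, another type I keratin that pairs with Krt8, stood at 49.2, 29.1 and 264 CPM in T spots and at 5.94, 4.88 and 16.4 CPM in matched spots (3.52, edgeR adjusted p = 1.5e-05). Krt7, a type II keratin of simple epithelia, was higher as well (2.25, edgeR adjusted p = 0.0135).

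Susd5, whose human product is a hyaluronan-binding surface protein, stood at 126, 254 and 504.5 CPM in T spots, against 12.9, 106 and 156 CPM in matched spots. The log2 fold change was 1.75 (edgeR, adjusted p = 0.00114). Set against all spots without T, at 1.93, 16.2 and 25.7 CPM, it was 4.50 (edgeR, adjusted p = 1.03e-07). Matched spots thus held more Susd5 than spots at large in every section, and T spots more again. Htra1, a secreted serine protease that degrades matrix proteoglycans, stood at 63.0, 65.2 and 339.5 CPM in T spots and at 8.91, 7.33 and 151 CPM in matched spots (1.80, edgeR adjusted p = 0.00562). DESeq2 called the other four and did not call Susd5 or Htra1 against matched spots.

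The remaining genes higher than in matched spots included secreted, adhesion and signalling products. Spp1, the secreted phosphoprotein osteopontin, stood at 13.8, 61.7 and 501 CPM in T spots, against 6.93, 3.05 and 22.2 CPM in matched spots (log2 fold change 4.12, edgeR adjusted p = 1.5e-05). At E11.5 that was 7 UMIs in each kind of spot, with a ratio of 1.99 (0.595 to 6.65). Lgals3, the galactoside-binding lectin galectin-3 that is used as a notochord and nucleus pulposus marker, stood at 39.4, 135 and 116 CPM in T spots and at 2.97, 5.49 and 56.1 CPM in matched spots (2.52, edgeR adjusted p = 0.0197). DESeq2 did not call Spp1 or Lgals3.

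Arhgef16, a guanine nucleotide exchange factor, stood at 19.7, 21.0 and 92.9 CPM in T spots, against 4.95, 0.610 and 1.93 CPM in matched spots (4.13, edgeR adjusted p = 0.00142). Rab38, a GTPase of lysosome-related organelles, stood at 15.8, 34.9 and 98.6 CPM in T spots and at 0.990, 1.83 and 9.67 CPM in matched spots (3.65, edgeR adjusted p = 9.6e-05). Ptgs1, the cyclooxygenase that makes prostaglandin precursors, stood at 21.7, 33.8 and 226 CPM in T spots and at 6.93, 5.49 and 22.2 CPM in matched spots (2.93, edgeR adjusted p = 0.000125). Arhgef16 and Rab38 passed edgeR's filter on low counts through their T spots alone, so they could be called higher and not lower. The calls for Arhgef16 and Ptgs1 were lost without the E13.5 section, at log2 fold changes of 3.12 and 2.24. Cd109 and Cd36, a GPI-anchored and a scavenger receptor, rose by log2 fold changes of 2.38 and 2.37, with edgeR adjusted p-values of 0.00229 and 0.0104. Htra1, Spp1, Lgals3, Ptgs1, Cd109 and Cd36 also needed their levels in T spots to pass the filter on low counts.

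The direction in each section comes from the same sums as the test, so the counts that follow are a description and add no evidence. Of the 40 genes higher than in matched spots, 39 had a higher level in T spots of 3 of 3 sections. The exception was Vtn, the adhesive plasma protein vitronectin, with 116, 25.6 and 7.59 CPM in T spots, against 21.8, 6.71 and 7.74 CPM in matched spots. Of the 9 lower genes, 8 were lower in 3 of 3. The exception among these was Matn1, a matrilin of maturing cartilage, with 3.94, 9.32 and 89.1 CPM in T spots, against 0, 42.7 and 278 CPM in matched spots (log2 fold change −1.65, edgeR adjusted p = 0.0119). At E11.5 it had 2 UMIs in T spots and 0 in matched spots.

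**Figure D2:**
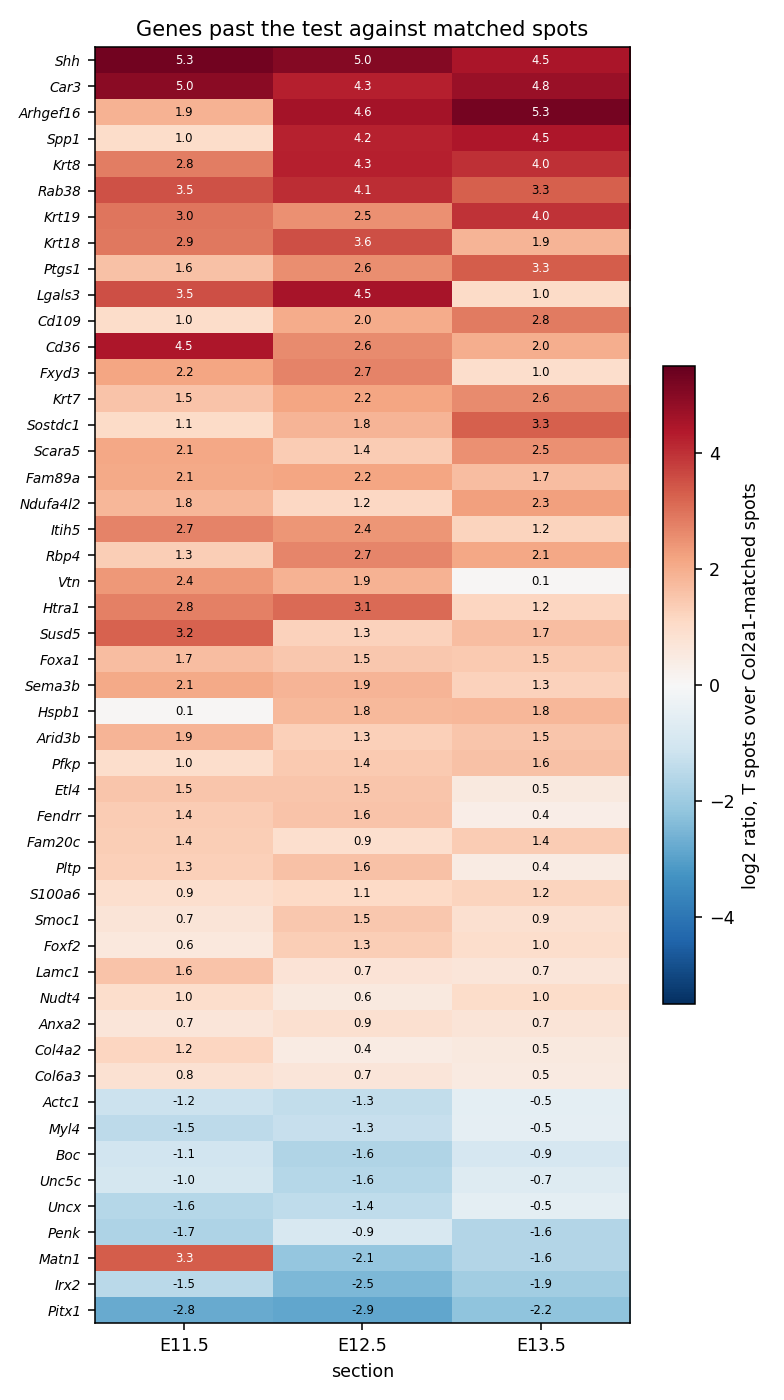
Log2 ratio of T spots over Col2a1-matched spots without T (colour and printed value, 0.5 UMI added to each sum) in each section for the 49 genes past edgeR's test, ordered by fitted fold. The upper 40 rows are positive in every section, which for Vtn at E13.5 (7.59 CPM in T spots and 7.74 CPM in matched spots) comes from the added 0.5 UMI. The lower 9 are negative except Matn1 at E11.5, which rests on 2 UMIs in T spots.

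Among the 9 genes lower than in matched spots, Pitx1, a homeobox gene of the hindlimb and jaw, stood at 3.94, 3.49 and 1.90 CPM in T spots, against 32.7, 29.3 and 12.6 CPM in matched spots (log2 fold change −2.93, edgeR adjusted p = 0.00562). T spots held 6 UMIs of Pitx1 over the 3 sections. Irx2, an Iroquois homeobox gene, had a log2 fold change of −2.22 (edgeR adjusted p = 0.0119), and its call was lost without E12.5 (−1.83) and without E13.5 (−2.28). Penk, the enkephalin precursor, stood at 27.6, 68.7 and 186 CPM in T spots and at 91.1, 128 and 578 CPM in matched spots (−1.35, edgeR adjusted p = 0.000998). Its call was lost without the E13.5 section (−1.11).

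Uncx, a homeobox gene of the caudal sclerotome, stood at 21.7, 36.1 and 20.9 CPM in T spots and at 66.3, 97.1 and 30.9 CPM in matched spots (−1.28, edgeR adjusted p = 0.0197). Unc5c, a netrin receptor, fell by 1.25 and Boc, a hedgehog co-receptor, fell by 1.18 on the log2 scale (edgeR adjusted p = 0.0386 and 0.0239). The muscle genes Myl4 and Actc1 fell by 0.91 and 0.88 on that scale (edgeR adjusted p = 0.0386 and 0.0244). Each of these 5 calls was lost in at least 1 fit without a section. Uncx lost its call without E11.5 and without E12.5, Unc5c without E12.5, Boc without E13.5, and Myl4 and Actc1 without E11.5. The log2 fold changes in those fits were −1.47 for Boc and −1.19 and −1.12 for Uncx, against −1.18 and −1.28 over all sections. Of the 9 lower genes DESeq2 called 1, Penk.

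The label of the spots was checked against notochord genes other than T, in lists chosen with earlier results of these data known. Of 6 notochord regulators and signals, 4 passed the filter on low counts against matched spots. Among them 2 were higher, Shh and Foxa1, beside 0.413% of all genes tested. Shh passed that filter through its T spots alone, so it could be called higher and not lower. Foxa1 passed it only with its levels in T spots, so nothing is read from this count or from the median given next. The median log2 fold change of the 4 was 0.99, beside 0.0016 over all genes tested. Foxa1, a forkhead factor of endoderm, floor plate and notochord, stood at 61.1, 75.7 and 5.69 CPM in T spots and at 18.8, 26.9 and 1.93 CPM in matched spots (1.58, edgeR adjusted p = 0.00791). At E13.5 that was 3 UMIs in T spots, and DESeq2 did not call it. Foxa2, the related factor of node and early notochord, stood at only 7.88, 1.16 and 1.90 CPM in T spots and at 0, 0 and 0.967 CPM in matched spots, too low for the test. Noto, the homeobox gene of the node and early notochord, had 0 UMIs in T spots and in all spots without T. The BMP antagonists Chrd and Nog had log2 fold changes of 0.39 and −0.01 against matched spots (edgeR adjusted p = 0.922 and 0.999). In the comparison with all spots without T, Nog rose with Shh and Foxa1, and stood at 29.5, 41.9 and 45.5 CPM in T spots and at 8.67, 15.3 and 17.0 CPM in all spots without T (1.47, edgeR adjusted p = 0.00281). Chrd and Foxa2 did not pass there (0.61 and 0.07, edgeR adjusted p = 0.429 and 0.989), and Foxa1 at E13.5 was at 5.69 CPM in T spots and 5.32 CPM in all spots without T.

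Of 12 genes of notochord sheath cells and nucleus pulposus, 11 were tested against matched spots and 5 rose, beside 0.413% of all genes tested, with none lower and a median log2 fold change of 1.25. They are Krt8, Krt18, Krt19, Car3 and Lgals3. All of these but Car3 passed the filter on low counts only with their levels in T spots, so nothing is read from that share. The other 6 tested did not pass. Vim, the intermediate filament vimentin, stood at 697, 619.5 and 2291 CPM in T spots and at 513, 455 and 603.5 CPM in matched spots (0.98, edgeR adjusted p = 0.100). Cd24a, a surface glycoprotein used to sort nucleus pulposus cells, stood at 774, 656 and 681 CPM in T spots and at 643, 593 and 260.1 CPM in matched spots (0.60, edgeR adjusted p = 0.341). Cav1, the membrane protein caveolin-1, had a log2 fold change of 1.25 (edgeR adjusted p = 0.0662), Cdh2 of 0.49 (0.428), Basp1 of −0.34 (0.605) and Ptn of −0.04 (0.996). Car12, a membrane-bound carbonic anhydrase, was at 0, 2.33 and 3.79 CPM in T spots and was not tested. The same 5 genes rose against all spots without T, and Basp1 and Ptn fell by 0.89 and 0.56 on the log2 scale (edgeR adjusted p = 0.00292 and 0.0439).

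Other tissues in which T or Shh is known, the tail bud and the floor plate, were checked by their markers. None of 13 tail bud and presomitic mesoderm genes reached the level needed for the test against matched spots. Of these, 6 had 0 UMIs in all T spots (Msgn1, Cdx2, Cdx4, Wnt3a, Fgf8 and Nkx1-2). The summed level of the 13 was 19.7, 12.8 and 5.69 CPM in T spots and 31.7, 12.8 and 11.6 CPM in matched spots. Of 10 floor plate genes, Lmx1b, Ferd3l and Nkx2-9 had 0 UMIs in T spots. The sum of the 10 was 294, 245 and 110.0 CPM in T spots, against 109, 136 and 82.2 CPM in matched spots. The median log2 fold change of the 4 tested was 1.08, close to that of the notochord regulators, with 1.19 for the guidance ligand Slit2 and 0.96 for the netrin Ntn1. None of the 4 passed, the closest being the axon guidance ligand Slit1 with 31.5, 11.6 and 19.0 CPM in T spots and 3.96, 4.27 and 2.90 CPM in matched spots (log2 fold change 2.32, edgeR adjusted p = 0.0637). The part of floor plate RNA in the Shh level was not tested.

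Cells of other tissues under the spots were read from marker sums. Genes of red blood cells summed to 53825, 7315 and 4533 CPM in T spots and to 28411, 7303 and 8412 CPM in matched spots, so T spots held more at E11.5 and less at E13.5. Their part in the results was not tested, and none of 8 tested was called. Endothelial genes summed to 258, 172 and 341 CPM in T spots and to 100.0, 186 and 257 CPM in matched spots. Neuron genes summed to 1206, 428.5 and 118 CPM in T spots, against 1019, 1055 and 414 CPM in matched spots, with none of 8 called. Heart genes summed to 160, 9.32 and 214 CPM in T spots, against 543, 14.7 and 263 CPM in matched spots, with none of 3 tested called. The part of heart RNA in the lower Myl4 and Actc1 was not tested. Genes of gut and lung epithelium, which also contain simple keratins, summed to 25.6, 19.8 and 39.8 CPM in T spots and to 16.8, 15.3 and 55.1 CPM in matched spots, and epidermal genes to 5.91, 15.1 and 15.2 CPM in T spots and 3.96, 12.8 and 19.3 CPM in matched spots, all too low for the test. No gene of the neural progenitor, tendon, macrophage or urogenital lists was called against matched spots. In summed spots, fewer cells of a type and less RNA per cell cannot be told apart.

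Against all spots without T, the contrast was wider. Here 251 genes were higher in T spots (1.71% of 14653 tested) and 316 were lower (2.16%) by edgeR's test. Without the section block edgeR called 0 in either direction, with 309 higher and 432 lower at an unadjusted p under 0.05, and DESeq2 called 203 and 136. With 1 T UMI as the threshold edgeR called 20 and 2, and without E11.5 361 and 576. By the repeat rule 32 of 5440 genes (0.588%) were at least 2-fold higher in every section, and 7 (0.129%) at least 2-fold lower. The mean CPM that the rule asks for includes the T spots. Genes such as Shh, Acan and Susd5 lay under 25 CPM in spots without T of at least 1 section and were admitted by their T spots. Nothing is therefore read from these shares. All of the repeating genes passed the test, which was fitted to the same sums. The 2 comparisons share the T spots, and matched spots are part of the spots without T, so a gene called in both is not called on independent evidence, and the values are given side by side.

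The 32 repeating genes held the 6 named above and, among others, genes of cartilage. Col2a1 stood at 2386, 5751 and 10225 CPM in T spots, against 441, 967 and 2218 CPM in all spots without T (log2 fold change 2.34, edgeR adjusted p = 2.77e-09). Acan, the large aggregating proteoglycan aggrecan, stood at 112, 250.3 and 1083 CPM in T spots and at 4.49, 30.8 and 156 CPM in all spots without T (3.24, edgeR adjusted p = 9.96e-07). Wwp2, the ubiquitin ligase whose gene hosts the cartilage microRNA miR-140, stood at 825, 1385 and 1498 CPM in T spots, against 114, 217 and 271 CPM. Pax1, the paired-box gene of ventral sclerotome, stood at 154, 512 and 446 CPM in T spots, against 29.6, 123 and 114 CPM in all spots without T (2.05, edgeR adjusted p = 1.28e-07). Across the sections the values of T spots and of all spots without T did not overlap for Wwp2 or Pax1, whereas for Acan the lowest T spot value, 112 CPM, lay below the highest value without T, 156 CPM.

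Cartilage matrix genes as a list were higher against all spots without T in 15 of 19 tested, beside 1.71% of all genes tested. None was lower, and the median log2 fold change was 2.27, beside −0.06 over all genes. Against matched spots 1 of 15 tested was higher (Susd5) and 1 lower (Matn1), beside 0.413% and 0.093% of all genes tested, and the median was 0.02. Acan, for example, had 112, 250.3 and 1083 CPM in T spots and 37.6, 245 and 780.4 CPM in matched spots (0.52, edgeR adjusted p = 0.476). Hapln1, the link protein that ties aggrecan to hyaluronan, had 84.7, 167 and 525 CPM in T spots and 11.9, 217 and 299.8 CPM in matched spots (0.57, edgeR adjusted p = 0.811). It was higher in the E11.5 and E13.5 sections and lower at E12.5. The chondrogenic factors Sox9, Sox5 and Sox6 were higher than in all spots without T (1.52, 1.57 and 1.19, edgeR adjusted p = 6.96e-06, 0.00682 and 0.0429). None of 4 such factors tested was called against matched spots, where the median was −0.17.

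**Figure D3:**
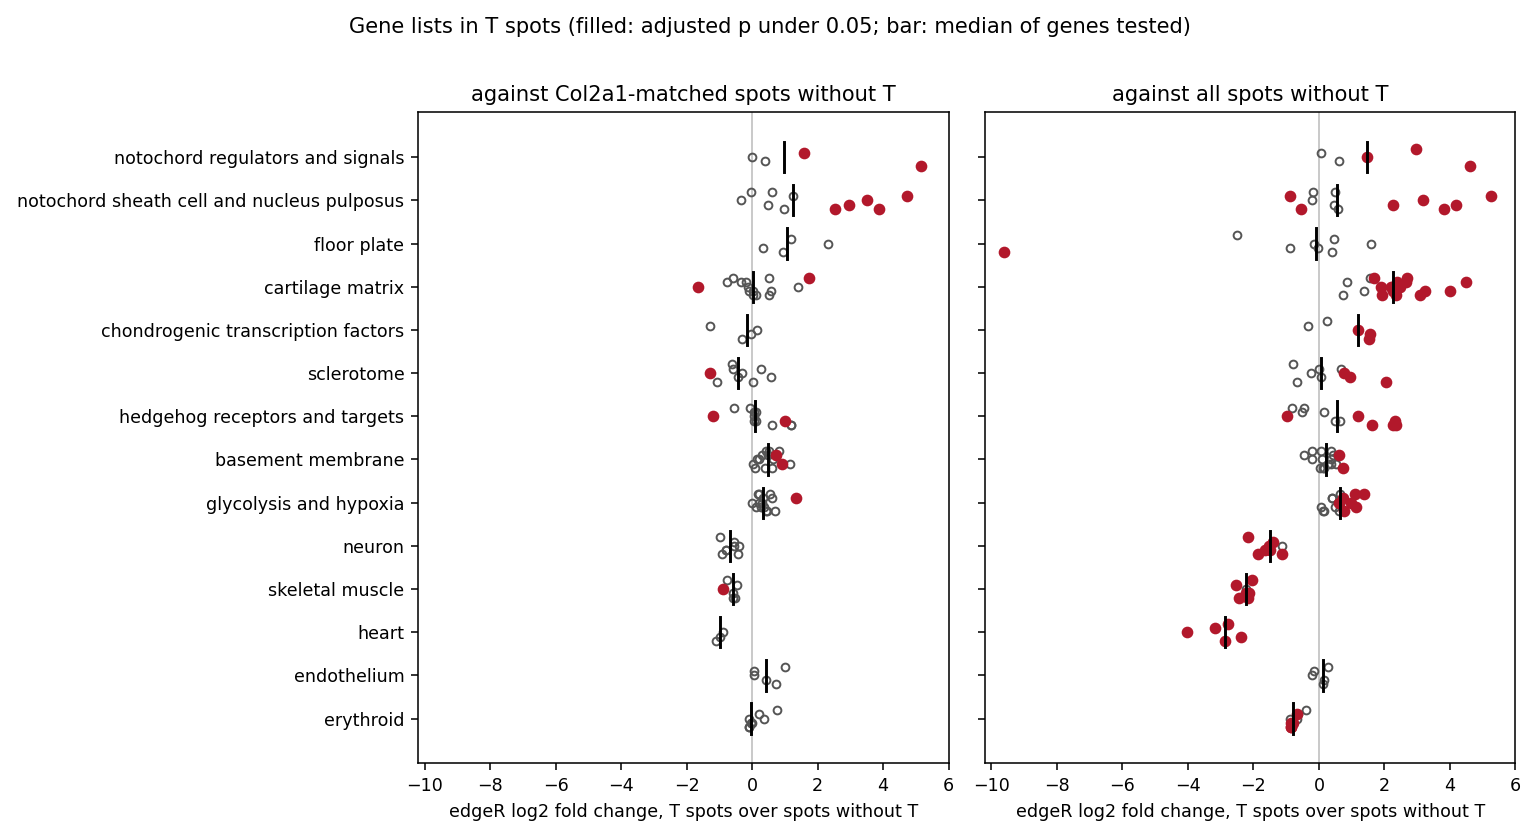
EdgeR log2 fold changes of single genes of 14 lists, T spots over Col2a1-matched spots (left, without Col2a1) and over all spots without T (right); filled points passed an adjusted p of 0.05 and bars mark the median of the genes tested. The cartilage list lies around 2.27 on the right and around 0.02 on the left, whereas keratins, Car3 and Shh lie far to the right in both; the fitted value of Lmx1b near −9.61 on the right belongs to a gene with 0 UMIs in T spots and is no bound.

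Hedgehog receptors and targets were read as a list of 12. Against all spots without T, 5 rose and 1 fell, beside 1.71% and 2.16% of all genes tested. The median log2 fold change of the 12 was 0.56, beside −0.06 over all genes. Ptch1, the receptor that is itself a hedgehog target, stood at 152, 241 and 96.7 CPM in T spots and at 45.2, 54.3 and 49.0 CPM in all spots without T (1.63, edgeR adjusted p = 6.9e-05). Gli1, the transcriptional target and effector, stood at 84.7, 109 and 100.5 CPM in T spots and at 41.4, 32.0 and 54.6 CPM in all spots without T (edgeR adjusted p = 0.00113). Hhip, the decoy receptor, rose by 2.35 (edgeR adjusted p = 0.000366). Foxf1 and Foxf2, forkhead targets in sclerotome and mesenchyme, rose by 2.25 and 2.32 (edgeR adjusted p = 0.0151 and 6.82e-05), and Boc fell by 0.98 (edgeR adjusted p = 0.0455).

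Against matched spots, Foxf2 rose and Boc fell among the same 12, beside 0.413% and 0.093% of all genes tested, with a median of 0.08. Foxf2 stood at 142, 139 and 28.4 CPM in T spots and at 94.1, 54.9 and 14.5 CPM in matched spots (1.01, edgeR adjusted p = 0.0190). Ptch1 in matched spots was at 99.0, 130.0 and 97.7 CPM (0.60, edgeR adjusted p = 0.228) and Gli1 differed by 0.06 (edgeR adjusted p = 0.986). In the sclerotome list, Pax1, Pax9 and Foxc1 of 9 tested were higher than in all spots without T, beside 1.71% of all genes tested. None of 9 was higher than in matched spots, where Pax1 had 217, 456 and 394 CPM (0.03, edgeR adjusted p = 0.994).

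Laminins and collagens of basement membrane, which the notochord sheath contains, rose in 2 of 15 tested against matched spots (median 0.49), beside 0.413% of all genes. They were Lamc1, a laminin gamma chain, at 76.8, 90.8 and 137 CPM in T spots and 25.7, 54.3 and 87.0 CPM in matched spots (0.90, edgeR adjusted p = 0.0413), and Col4a2, a type IV collagen chain (0.73, edgeR adjusted p = 0.0366). Their ratios were largest at E11.5, at 2.98 for Lamc1 and 2.25 for Col4a2, the section where the endothelial genes summed to 258 CPM in T spots and 100.0 CPM in matched spots. Endothelial cells also make basement membrane, and their part in these results was not tested. Against all spots without T, 2 of 16 rose, Lamb2 and Hspg2 (median 0.22), beside 1.71% of all genes tested. Of the glycolysis and hypoxia list, 7 of 16 rose against all spots without T, beside 1.71% of all genes tested, with a median of 0.63, beside −0.06 over all genes. Pfkp, the platelet form of phosphofructokinase, stood at 104, 85.0 and 83.5 CPM in T spots, against 53.5, 31.1 and 27.1 CPM in matched spots and 42.0, 30.2 and 29.8 CPM in all spots without T. It rose in both comparisons (1.35 and 1.37, edgeR adjusted p = 0.0025 and 0.000104). Pfkp was the 1 gene of 15 tested called against matched spots, beside 0.413% of all genes tested.

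Lists of BMP ligands and antagonists, TGF-beta and CCN genes and Notch genes had no member called against matched spots, among 9, 11 and 10 tested. Against all spots without T, 3 of 11 in the TGF-beta list rose (Tgfbi, Ltbp3 and Ccn2), beside 1.71% of all genes tested. None rose in the BMP and Notch lists. The hypertrophic cartilage and bone list had a single gene tested against matched spots, Spp1.

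Several genes at or near 0 CPM in all spots without T entered the test through their counts in T spots, so they could be called higher and not lower. They are given as a description of levels, and their fitted folds depend on the prior count. Samd3, which encodes a sterile alpha motif domain protein, had 14, 24 and 5 UMIs in T spots, or 27.6, 27.9 and 9.48 CPM, against 0.0966, 0.358 and 0.117 CPM in all spots without T (6.80, edgeR adjusted p = 2.01e-05). Wfdc10, a whey acidic protein domain gene, had 9, 12 and 1 UMIs (4.93, edgeR adjusted p = 0.000563). Tshr, the thyrotropin receptor, had 5, 2 and 19 UMIs (4.71, edgeR adjusted p = 0.00115), and Klk10, a kallikrein-related protease, 1, 4 and 34 UMIs (5.18, edgeR adjusted p = 0.000758). The Klk10 call was lost without E13.5 (3.86). Loxl4, a lysyl oxidase that cross-links collagen, and Isg20, an exonuclease, rose by 4.43 and 4.06 (edgeR adjusted p = 0.000408 and 0.000541). Snorc, a cartilage proteoglycan, rose by 4.01 (edgeR adjusted p = 7.39e-05) and, unlike these, was not near 0 CPM at E13.5. It stood at 37.4, 54.7 and 512 CPM in T spots, against 0.242, 1.30 and 62.0 CPM in all spots without T.

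The 7 genes at least 2-fold lower than in all spots without T in every section were Actn2, Actc1, Myl4, Tnnc1, Tnnt1, Tnni1 and Atp1b1, of which the first 6 encode sarcomere proteins and the last a sodium pump subunit. Actc1, cardiac actin, stood at 67.0, 52.4 and 355 CPM in T spots, against 445, 372 and 1522 CPM in all spots without T (−2.55, edgeR adjusted p = 1.26e-07). Of the lists, 6 of 7 skeletal muscle genes, 5 of 5 heart genes, 7 of 8 neuron genes and 3 of 4 liver genes fell, beside 2.16% of all genes tested. The medians were −2.24, −2.86, −1.51 and −1.97, beside −0.06 over all genes. Against matched spots none of those lists had a call but Actc1. Of the red blood cell list, 5 of 9 fell against all spots without T, beside the same 2.16%. In the remaining lists described here Fmod of tendon rose against all spots without T, while Nes, Krt5, Krt14, Wt1 and Osr1, of neural progenitors, epidermis and urogenital tissue, fell.

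Conversely, 7 genes that entered the test through the spots without T alone had 0 UMIs in T spots of all sections, namely Tfap2b, Popdc2, Pax7, Emx2, Grip2, Vsnl1 and Lmx1b. Tfap2b, a transcription factor of neural crest and kidney, was at 15.4, 19.5 and 1.21 CPM in all spots without T, and Pax7, a factor of dorsal neural tube and muscle precursors, at 7.56, 6.09 and 12.7 CPM. At the depth of the T spots a count of 0 is, for all of them but Pax7, within counting error of an equal level in 1 or more sections. The counting interval of the ratio at E13.5 reached 6.12 for Tfap2b, 1.57 for Emx2 and 6.57 for Lmx1b. That at E11.5 reached 1.94 for Vsnl1 and 2.15 for Grip2, and that at E12.5 reached 2.65 for Popdc2. Emx2 and Lmx1b lost their call without E12.5, DESeq2 did not call Emx2, Vsnl1 or Lmx1b, and these and Grip2 lost it with 3 T UMIs as the threshold.

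To describe how the members vary, the levels were summed by the number of T UMIs in a spot. Since this number is what chose the spots, the classes are given without a test. The leading genes were highest in spots with at least 5 T UMIs. Car3 stood at 8.12, 17.6, 7.77, 215 and 1374 CPM at E11.5 over spots with 0, 1, 2, 3 to 4 and at least 5 T UMIs. At E12.5 it stood at 11.1, 21.9, 26.3, 143 and 715 CPM, and at E13.5 at 52.4, 87.3, 284, 1216 and 9229 CPM. The step from the lowest to the highest class was thus present in every section.

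Shh at E12.5 stood at 8.19, 19.7, 36.8, 112 and 764 CPM over the same classes and at E11.5 at 4.83, 16.3, 15.5, 90.2 and 677.5 CPM. At E13.5 it stood at 4.54, 0.746, 6.46, 0 and 155 CPM, highest in spots with at least 5 T UMIs. The 0 of the class with 3 to 4 rests on 50162 UMIs in 7 spots, with an interval of up to 73.5 CPM, and that of the class with 2 reached 23.3 CPM. Krt8 reached 405, 470 and 1464 CPM in the highest class of the 3 sections and 29.8, 6.40 and 23.6 CPM in spots with 0 T. Susd5 reached 517.5, 698 and 1375 CPM in the highest class and 1.93, 16.2 and 25.7 CPM in spots with 0 T.

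**Figure D4:**
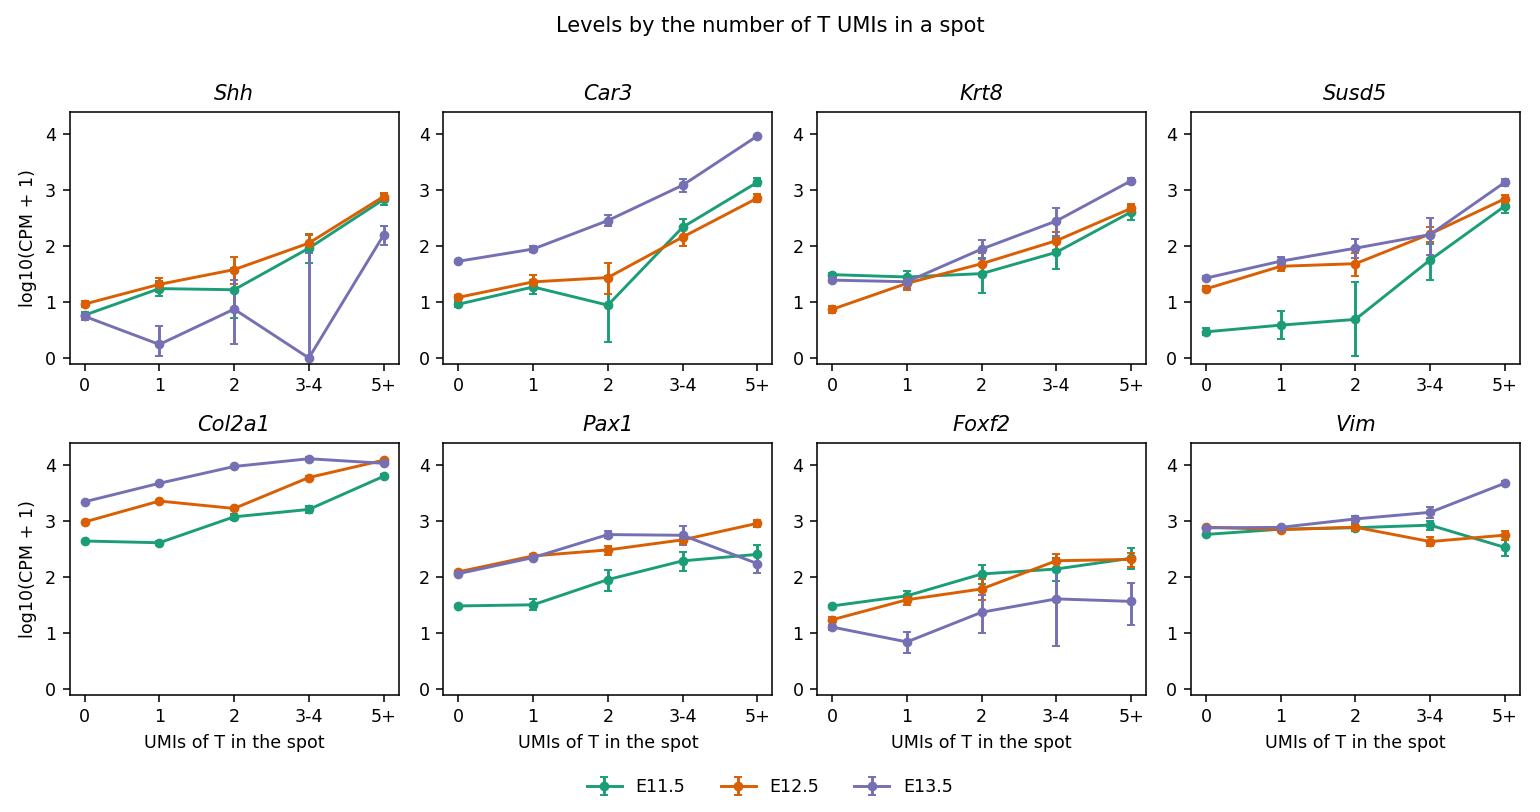
Level as log10(CPM + 1) of 8 genes in spots with 0, 1, 2, 3 to 4 and at least 5 UMIs of T, a line per section; bars are exact Poisson 95% intervals of counting error. Shh, Car3, Krt8 and Susd5 are highest in the last class of every section, while Pax1 at E13.5 is lower there (173 CPM) than in spots with 2 T UMIs (575 CPM).

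Some genes followed the classes differently by section. Pax1, for example, stood at 29.6, 31.1, 89.4, 194 and 254 CPM over the classes at E11.5 and at 123, 238, 305, 462 and 913 CPM at E12.5. At E13.5 it stood at 114, 223, 575, 558 and 173 CPM, lowest among T spots where T was highest. Vim went the other way at E13.5, with 756, 774, 1094, 1435 and 4764 CPM, whereas at E11.5 and E12.5 its highest class, at 339 and 562 CPM, lay below the spots with 0 T, at 578 and 780.5 CPM. Cd24a at E13.5 stood at 184, 209, 174, 439 and 1692 CPM, and in the highest class of E11.5 and E12.5 at 1063 and 869 CPM. The highest class had fewer UMIs per spot than spots with 0 T, with medians of 16512, 16522 and 9100 UMIs in the 3 sections.

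Just inside the threshold, spots with 2 T UMIs held 7.77, 26.3 and 284 CPM of Car3, and just outside it, spots with 1 T UMI held 17.6, 21.9 and 87.3 CPM. Set against spots with 0 T, Car3 in spots with 1 T UMI was 2.17-fold (1.54 to 2.98), 1.97-fold (1.42 to 2.68) and 1.67-fold (1.44 to 1.91). For Susd5 the ratios were 1.48 (0.577 to 3.19), 2.62 (2.08 to 3.29) and 2.04 (1.69 to 2.46). Shh was 3.38-fold (2.35 to 4.77) at E11.5, 2.40-fold (1.69 to 3.34) at E12.5 and 0.164-fold (0.0197 to 0.607) at E13.5. Krt8 was raised in such spots at E12.5 alone, at 3.21-fold (2.26 to 4.49), with 0.906 (0.696 to 1.16) at E11.5 and 0.933 (0.702 to 1.22) at E13.5.

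Spot by spot, Shh and Car3 were found together in 12 of 22 (E11.5), 24 of 36 (E12.5) and 15 of 45 (E13.5) T spots. Neither was found in 8, 2 and 3 T spots of the 3 sections. Among spots with 2 T UMIs, 8 of 10 (E11.5), 1 of 13 (E12.5) and 3 of 20 (E13.5) lacked both. No spot with at least 5 T UMIs lacked both (0 of 6, 0 of 14 and 0 of 18). At E13.5, 27 T spots held Car3 without Shh, and none held Shh without Car3.

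Shares of spots with a UMI depend on depth, so each spot was also thinned to 2000 UMIs. This left out 2 T spots, 5 matched spots and 17 spots without T at E13.5. It also left out 4 spots without T at E11.5 and 4 at E12.5. Car3 was then expected in 33.9%, 32.8% and 69.9% of T spots, against 2.10%, 2.31% and 25.2% of matched spots and 1.51%, 2.06% and 10.4% of all spots without T. Before thinning the shares were 59.1%, 80.6% and 93.3% in T spots and 22.7%, 18.1% and 62.2% in matched spots. Shh after thinning was expected in 24.0%, 36.0% and 11.1% of T spots and in 0.846%, 1.26% and 0.158% of matched spots. The spot with the most Car3 held 31.3%, 16.3% and 11.3% of the Car3 UMIs of T spots, so at E11.5 a single spot carried a large part. Spots with at least 5 T UMIs (6, 14 and 18) held 146 of 179, 163 of 209 and 1544 of 1693 Car3 UMIs.

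T spots were not alike in cartilage content. Split at the median Col2a1 share within each section (11 and 11, 18 and 18, and 22 and 23 spots), the T spots rich in Col2a1 held more of the leading genes at E11.5 and E12.5. Car3 stood at 806 CPM in Col2a1-rich T spots and at 46.2 CPM in Col2a1-poor T spots at E11.5, and at 475.5 and 98.4 CPM at E12.5. At E13.5 it stood at 2455 CPM in Col2a1-rich and 3510 CPM in Col2a1-poor T spots. Shh stood at 366, 506 and 13.4 CPM in Col2a1-rich T spots, against 46.2, 92.7 and 68.8 CPM in Col2a1-poor ones. T itself was at 405.5 and 554 CPM in the rich spots of E11.5 and E12.5, against 89.1 and 114 CPM in the poor spots, and at 662 and 712 CPM at E13.5.

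Other genes differed between Col2a1-rich and Col2a1-poor T spots in both directions. Stmn2, a microtubule regulator of neurons, stood at 137 and 18.2 CPM in Col2a1-rich T spots of E11.5 and E12.5, against 551 and 221 CPM in Col2a1-poor ones. The globin Hba-a1 stood at 3156 and 185 CPM in the rich spots, against 7582 and 1982 CPM in the poor ones. Scx, a tendon transcription factor, stood at 92.8 and 66.6 CPM in the rich spots of the same sections, against 19.8 and 43.5 CPM in the poor ones, and Foxf1 at 161 and 218 CPM, against 29.7 and 83.2 CPM. Fmod, a small proteoglycan of tendon and cartilage, ran with Col2a1 in every section, at 122, 203 and 1780 CPM in Col2a1-rich T spots and 19.8, 58.6 and 474 CPM in Col2a1-poor ones. These splits are descriptions within 1 section each.

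Section by section, the genes whose counting intervals against matched spots lay farthest from a ratio of 1, ranked after the values were seen, held further names beside the 6. At E11.5 they included Vwf, the endothelial clotting factor, at 88.6 CPM in T spots and 12.9 CPM in matched spots, a ratio of 6.89 (3.65 to 13.9), beside the higher endothelial sum of that section. Vtn was among them as well, with a ratio of 5.34 (3.22 to 9.14). At E12.5 they included Snorc at 54.7 CPM in T spots and 4.27 CPM in matched spots, and Clu, the chaperone clusterin, at 54.7 and 6.10 CPM. The E13.5 section added Klk10 at 64.5 CPM in T spots and 1.93 CPM in matched spots, the phosphodiesterase Pde1a at 81.6 and 4.84 CPM, and Perp, a desmosome protein, at 91.0 and 6.77 CPM.

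Lower than in matched spots by the same ranking were Myl7 at E11.5, an atrial myosin light chain, at 84.7 CPM in T spots and 342 CPM in matched spots, and Gdf10 at E12.5, a BMP-related ligand, at 50.1 and 217 CPM. At E13.5 the list held genes of maturing cartilage, with Cytl1 at 150 CPM in T spots and 461 CPM in matched spots, Comp at 156 and 398 CPM, Matn1 at 89.1 and 278 CPM and Matn4 at 294 and 689 CPM. Acan and Snorc were not among them, at 1083 and 512 CPM in T spots and 780.4 and 327 CPM in matched spots of E13.5. Neuronal Nefl and Tubb3 were lower at E12.5 and E13.5, with Tubb3 at 79.2 and 20.9 CPM in T spots, against 245 and 87.0 CPM in matched spots.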

How the data were processed

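Raw UMI counts for each gene in each spot were deposited by the authors as 1 matrix per section. The headers of these files name Space Ranger 1.2.0 as the program. The submitters' processing notes name STAR and mm10. How spots entered the matrices is not given in the sources used here. Stages were taken from titles, and spot positions and images were not used.

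Counts were summed per section and kind of spot and scaled to CPM. Each T spot was assigned 2 spots with 0 T UMIs, minimising the summed difference in log10(Col2a1 per 10000 UMIs + 1). The 6 sums were fitted with edgeR 4.0.16 (filterByExpr, TMM, quasi-likelihood; R 4.3.3), with the section as block because both kinds of spots lie in the same section. T, and Col2a1 when matched, were left out. DESeq2 1.42.0 served as an alternative. The repeat rule used a pseudocount of 0.5 UMI. Spots are regions, so no doublet caller was run. Python 3.11.15, scipy 1.17.1 and matplotlib 3.10.9 were used. The steps were tested on simulated data.

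Genes named are up to 12 per comparison and direction by the smallest of the 3 log2 ratios among repeats with at least 5 UMIs in the higher kind, up to 12 past edgeR by fold, and members of 27 lists. Left out of that ranking were globins, ribosomal protein, mitochondrial and sex-linked genes, unnamed genes and symbols used more than once. Members and lists were chosen with earlier results of these data known. The ranking by section and the genes shown by T class and Col2a1 split were chosen after the values were seen.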

Additional observations from a re-analysis of the deposited data

Results flagged for a closer look

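Some genes stood higher than in the spots without T in 1 section and lower in another, by ratios whose counting intervals excluded 1 on both sides. With 1 section a stage, none of these differences was tested, and each is given as values.

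Against matched spots, the embryonic globin Hba-x had a ratio of 2.27 at E11.5 and of 0.354 at E13.5. Against all spots without T, Spon1, a floor plate and extracellular matrix protein, had a ratio of 2.26 at E11.5 and of 0.358 at E13.5. Fst, the activin antagonist follistatin, had ratios of 2.999, 3.63 and 0.496 in the 3 sections in order of stage. Nkx2-2, a homeobox gene of ventral neural progenitors, had 4.39 at E11.5 and 0 at E12.5, where T spots held none. The glial lipid carrier Fabp7 had 0.351 at E12.5 and 5.12 at E13.5. A single spot held 28.8% of the Fabp7 UMIs of T spots at E12.5 and 10.2% in the E13.5 section. Ttr, the carrier protein transthyretin, had 0.0256 at E11.5 and 4.55 at E12.5.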

How the results depend on the processing

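Counts of genes are given as higher and lower. By edgeR they were 251 and 316 against all spots without T and 40 and 9 against matched spots, and by the repeat rule 32 and 7, and 6 and 0. Leaving out the section block (no replicate block), edgeR called 0 and 0 in both comparisons, with 309 and 432, and 101 and 49, at an unadjusted p under 0.05, against 797 and 1361, and 392 and 262, with it. DESeq2 called 203 and 136, and 13 and 1. Without a filter on low counts edgeR called 338 and 684, and 120 and 54. With 1 T UMI as the threshold it called 20 and 2, and 6 and 0 (343 lower at an unadjusted p under 0.05), and the repeat rule 3 and 0, and 1 and 0. With 3 T UMIs the repeat rule gave 56 and 28, and 15 and 2. With at least 1 T UMI per 10000 as well, edgeR called 448 and 618, and 49 and 14, and the repeat rule gave 65 and 28, and 13 and 1. With a mean of 50 CPM the repeat rule gave 18 and 3, and 3 and 0. Matching on depth as well gave 55 and 25 by edgeR, and 1 matched spot per T spot 26 and 3, with 7 and 1 repeats. Leaving out a section each, edgeR gave 225 to 361 higher and 239 to 576 lower against all spots, the most lower without E11.5, and 29 to 77 higher and 9 to 19 lower against matched spots, the most higher without E12.5. The repeat rule, over the sections kept, gave 36 to 64 higher and 15 to 36 lower, and 10 to 14 higher and 4 to 7 lower. An alternative added after seeing the data, without the spot with the most T UMIs of each section, gave 232 and 294, 37 and 9, 31 and 7, and 6 and 0. Of 906 values of 72 genes under alternatives, 711 kept direction and side of the threshold, 171 lost and 10 gained the call, and 14 reversed; the cause was not tested. Leaving out the block gave 64 of the lost calls and the threshold of 1 T UMI 47. Reversed against matched spots were Myl4 (0.061) and Actc1 (0.024) at 1 T UMI, as log2 fold changes, and genes without a call. Chrd reached −0.016 with 1 matched spot and ran from −0.0035 to 0.72 over the fits without a section. Nog reached 0.18 with DESeq2, 0.035 without the block, 0.17 at 1 and 0.24 at 3 T UMIs, 0.11 at 5000 UMIs per spot, 0.27 with the T share and 0.072 matched on depth, and ran from −0.24 to 0.61 without a section. Ptn reached 0.049 without the block and ran from −0.30 to 0.33 without a section. The depth of the E13.5 T spots limits their low genes to a few UMIs.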
